A study of Macaca mulatta with 52 samples.

Results

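Histone deacetylases remove acetyl groups from lysines, on histone tails and on other proteins, and fall into classes by sequence. The class I enzymes HDAC1, HDAC2, HDAC3 and HDAC8 are mainly nuclear. Of these, HDAC1 and HDAC2 work inside the co-repressor complexes NuRD, SIN3, CoREST and MiDAC, and HDAC3 works with NCoR and SMRT. The class IIa proteins HDAC4, HDAC5, HDAC7 and HDAC9 have weak catalytic activity of their own, bind MEF2 transcription factors, and shuttle between nucleus and cytoplasm when kinases create docking sites for 14-3-3 proteins. HDAC6, of class IIb, is a cytoplasmic enzyme that deacetylates alpha-tubulin, and HDAC11 is the sole class IV member. In early embryos of mammals, class I enzymes are known for their part in setting histone acetylation around the start of embryonic transcription.

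The family was followed by 10 listed symbols, HDAC1 to HDAC9 and HDAC11. Of these, 9 had a named identifier in a table of 26309 identifiers, 15078 of which carried a symbol. HDAC8 was not analysed here. The identifiers were ENSMMUG00000009948 (HDAC1), ENSMMUG00000008937 (HDAC2), ENSMMUG00000012588 (HDAC3), ENSMMUG00000006077 (HDAC4), ENSMMUG00000006806 (HDAC5), ENSMMUG00000016465 (HDAC6), ENSMMUG00000021655 (HDAC7), ENSMMUG00000011170 (HDAC9) and ENSMMUG00000001369 (HDAC11).

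Each library came from 1 preimplantation embryo of the rhesus monkey (Macaca mulatta). Oocytes had matured in vivo in females given FSH and hCG, were inseminated in vitro, and the embryos grew in HECM-9 medium, with calf serum later, in the presence or absence of relaxin. The labels do not say which embryos received relaxin or which shared parents, so p-values measure only the spread between these embryos. The SoLo kit (Ovation SoLo), which depletes ribosomal RNA sequences from the library, gave 4 libraries of 8-cell embryos, 3 of morulas and 6 of expanded blastocysts. The SPIA kit (Ovation RNA-Seq v2), which amplifies cDNA linearly before fragmentation, gave 9 libraries of 8-cell embryos, 11 of morulas, 2 of delayed blastocysts and 14 of expanded blastocysts. By title, 11 embryos could be paired between the kits, which include every SoLo library of the 8-cell and morula stages. The 2 SoLo blastocyst libraries left unpaired carry code 111215. They fit the titles of embryos 111215_01 and 111215_03, which also had SPIA libraries, but which is which is not known. A change seen in both kits is therefore not seen in separate sets of embryos.

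Library totals, in mega counts (M), ranged from 5.70 M to 10.6 M in SoLo and from 0.601 M to 21.0 M in SPIA. The summed level of 4 markers of the 8-cell embryo, ZSCAN4, LEUTX, TPRX1 and RBP7, was 924 to 1315 CPM (counts per M counts) in the 8-cell libraries, 5.87 to 33.7 in the morulas and 0 to 70.4 in the blastocysts of SoLo. In SPIA it was 197 to 584 CPM in 8-cell embryos, 1.45 to 582 in morulas and 0.487 to 45.5 in expanded blastocysts, so at least 1 morula overlapped the 8-cell range. Summed trophectoderm markers (GATA2, GATA3 and KRT18) lay between 1260 and 2204 CPM in the SoLo blastocysts. The SoLo morulas had 7.33, 57.5 and 1064 CPM, so 1 of them came close to the blastocysts. In SPIA these markers summed to 5.59 to 391 CPM in morulas and 45.7 to 876 in expanded blastocysts, and the ranges overlapped. Markers of cumulus and granulosa cells, with which oocytes are surrounded, were VCAN, INHA, AREG, HAS2, TNFAIP6, STAR, CYP19A1, GREM1 and FSHR. VCAN made up much of their sum, with means of 876 CPM in SoLo and 309 CPM in SPIA 8-cell embryos. Summed, these markers reached 2256 CPM in 8-cell embryo 020816_07, 1242 in 112815_02 and 555 in 020816_06 in SoLo, against 13.0 in 020816_08. In SPIA they ranged from 1.45 to 1614 CPM over the 8-cell libraries and stayed at or below 35.5 CPM at the later stages. The SPIA 8-cell library 020816_09 stood apart, with a median correlation of 0.552 with the others of its group, against 0.723 to 0.781 for the rest. Among SPIA morulas, 022916_02 and 022916_03 were lowest, at 0.647 and 0.697, against 0.739 to 0.814 for the rest. In whole embryos, fewer cells of a type and less RNA per cell cannot be told apart.

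All levels are CPM of the TMM-scaled library total, normalised within a kit. Gene lengths of the counted models were not used here, so levels are compared between libraries for 1 gene and not between genes. A count of 3, the limit a count of 0 allows, corresponds to 0.275 to 0.601 CPM in SoLo and 0.113 to 6.86 CPM in SPIA. A gene is called when its edgeR quasi-likelihood p-value, adjusted by Benjamini-Hochberg over all genes tested, is below 0.05, and log2 fold changes are given ± standard error.

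The family's clearest stage difference was in HDAC7, which was near 0 in 8-cell embryos and present in morulas and blastocysts in both kits. HDAC9 went the other way and was higher in 8-cell embryos than in expanded blastocysts in both kits, but the SPIA call was lost without 1 of the 8-cell embryos. HDAC4 was lower in morulas than in 8-cell embryos in SoLo but was not called in SPIA. HDAC1, HDAC2 and HDAC5 were not called in any stage contrast in either kit, HDAC3 was called once, a call that came from 1 library, and HDAC6 was called once, as higher in SoLo blastocysts. For morula against 8-cell, 2 of 8 members tested were called in SoLo, where 16.7% of all genes were called, and 2 of 9 in SPIA, where 19.4% were. For expanded blastocyst against 8-cell, 4 of 8 members were called in SoLo, where 38.4% of all genes were called, and 2 of 9 in SPIA, where 36.6% were. The median log2 fold change of the members in that contrast was 0.43 in SoLo and -0.20 in SPIA, against -0.05 and -0.43 over all genes tested. The members' shares are thus near the shares over all genes.

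**Figure D1:**
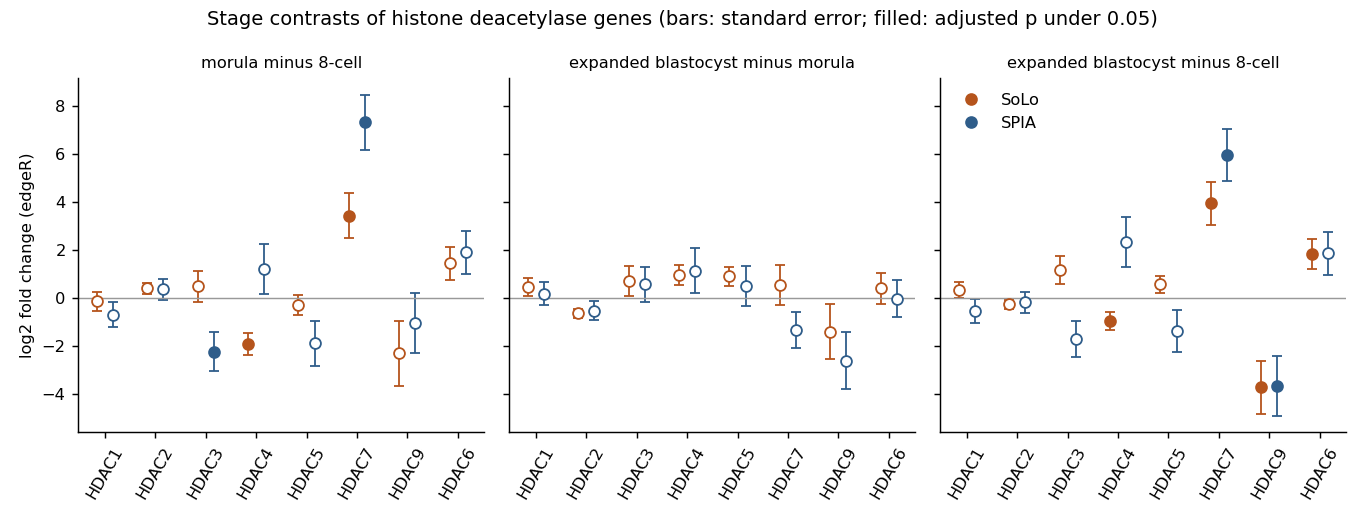
Log2 fold change of 8 histone deacetylase genes in 3 stage contrasts (panels), with the SoLo value left of the SPIA value for each gene and bars showing the standard error; filled symbols have an edgeR adjusted p under 0.05. HDAC7 is high in both contrasts with the 8-cell stage (3.41 and 7.30, then 3.93 and 5.94), and no symbol is filled between morula and blastocyst.

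HDAC7, a class IIa member known for roles in endothelial and T cells of mice, had 0, 0.226, 1.74 and 2.54 CPM in the 4 SoLo 8-cell libraries, from 0, 2, 16 and 19 counts. In the SoLo morulas it had 9.44, 11.4 and 15.1 CPM, and in the expanded blastocysts the lowest value was 11.8, the median 16.3 and the highest 25.0 CPM. No 8-cell library overlapped a later one. The morulas were higher by 3.41 ± 0.94 on the log2 scale (edgeR adjusted p = 0.0197) and the expanded blastocysts by 3.93 ± 0.90 (edgeR adjusted p = 0.00269).

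In SPIA, 7 of 9 8-cell libraries held 3 counts of HDAC7 or fewer, and the lowest, median and highest levels were 0, 0.123 and 1.19 CPM. The morulas spanned 0.0823, 16.3 and 140.25 CPM as lowest, median and highest, and the expanded blastocysts 1.61, 10.4 and 75.4 CPM. Every expanded blastocyst lay above every 8-cell embryo, while 2 of the 11 morulas, 022916_02 with 2 counts and 022916_03 with 8 counts, lay inside the 8-cell range. The highest blastocyst value came from the library of 0.601 M counts and rests on 33 counts. HDAC7 was higher in morulas by 7.30 ± 1.17 (edgeR adjusted p = 4.63e-05) and in expanded blastocysts by 5.94 ± 1.09 (edgeR adjusted p = 4.63e-05), relative to 8-cell embryos. Among SPIA embryos that had no SoLo library, the differences were 7.96 (edgeR adjusted p = 0.00775) and 6.33 (edgeR adjusted p = 0.00421), so the rise did not rest on the shared embryos.

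Cumulus markers were high in 8-cell embryos 020816_06, 020816_07 and 112815_02. Without these 3 the morula difference of HDAC7 was 7.01 in SPIA (edgeR adjusted p = 7.18e-04). In SoLo it was 5.63, where 1 8-cell library remained and cannot show the spread of its stage. In SPIA 3 more 8-cell embryos, with 114 to 259 CPM, exceeded the later stages in these markers. Without all 6, with 3 8-cell embryos left, the HDAC7 difference was 7.56 for morulas (edgeR adjusted p = 0.0108) and 6.20 for expanded blastocysts (edgeR adjusted p = 0.0105). Stage and the 6-digit code in the library titles are nearly confounded. Only code 020816 holds both 8-cell embryos and morulas, in SPIA, and within it HDAC7 was higher in morulas by 7.71, with an edgeR adjusted p of 0.177. The SoLo morula call was also lost when only the compared groups were fitted (3.40, edgeR adjusted p = 0.179). HDAC7 did not differ between expanded blastocysts and morulas beyond the spread: 0.52 ± 0.83 in SoLo and -1.36 ± 0.76 in SPIA (edgeR adjusted p = 0.808 and 0.236).

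**Figure D2:**
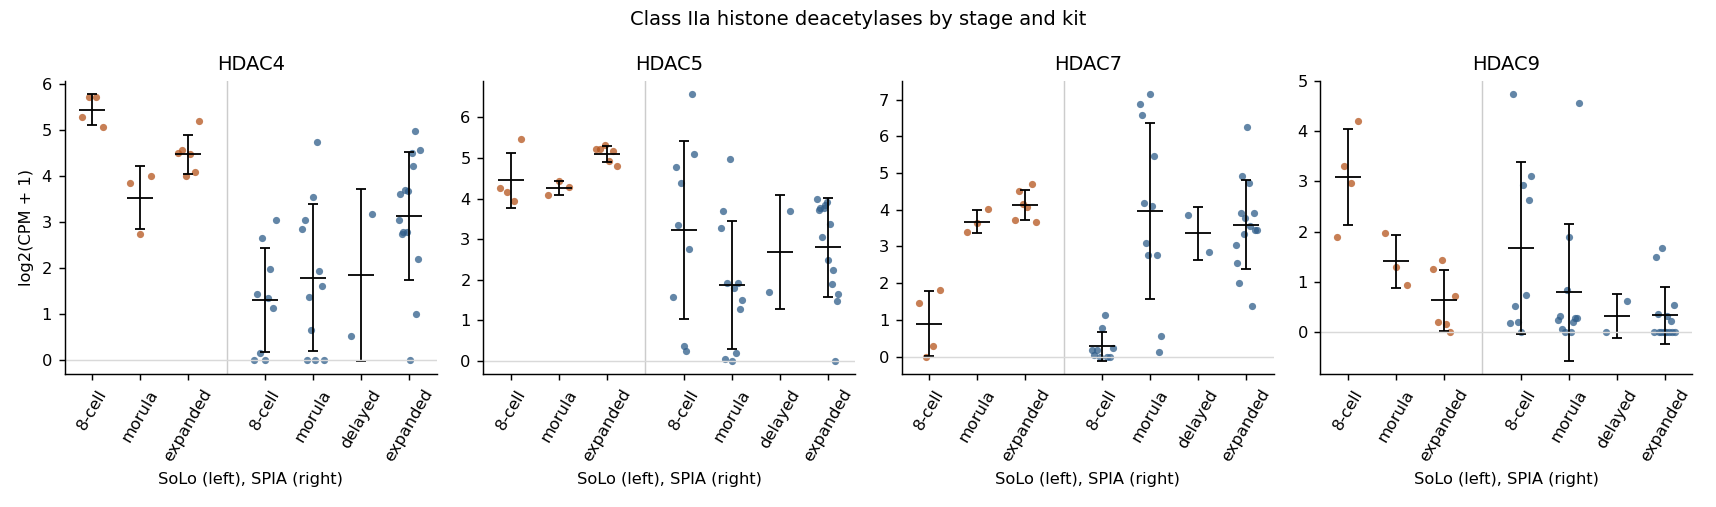
Levels of the 4 class IIa genes as log2(CPM + 1), 1 point per library, with SoLo stages left and SPIA stages right of the grey line; black bars give the mean and SD of each group. HDAC7 is near 0 in the 8-cell groups of both kits, HDAC9 is highest there, and HDAC4 at the 8-cell stage is high in SoLo (32.1 to 51.7 CPM) and low in SPIA (0 to 7.21 CPM).

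HDAC9, a class IIa member studied in muscle and immune cells, had 2.72, 6.79, 8.91 and 17.4 CPM in the SoLo 8-cell libraries, from 25, 60, 94 and 130 counts. The 3 SoLo morulas had 0.918, 1.47 and 2.93 CPM, and the expanded blastocysts had 0, 0.390 and 1.72 CPM as lowest, median and highest. The blastocysts did not overlap the 8-cell embryos, and the highest morula lay just inside the 8-cell range. HDAC9 fell by 3.74 ± 1.11 in expanded blastocysts relative to 8-cell embryos (edgeR adjusted p = 0.0138), and the value for morulas was -2.32 ± 1.35 (edgeR adjusted p = 0.245).

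In SPIA the lowest, median and highest HDAC9 levels were 0, 0.667 and 25.7 CPM for 8-cell embryos, 0, 0.206 and 22.6 CPM for morulas, and 0, 0 and 2.21 CPM in expanded blastocysts. The groups overlapped, and 12 of 14 blastocyst libraries held 3 counts or fewer, against 2 of 9 8-cell libraries. Single embryos held most of the signal: 8-cell embryo 011516_03 had 676 counts and morula 022916_03 had 371. HDAC9 fell by 3.68 ± 1.25 in expanded blastocysts relative to 8-cell embryos (edgeR adjusted p = 0.0182). Without embryo 011516_03 the value was -2.70 and the call was lost (edgeR adjusted p = 0.0852). The call was kept in 22 of the 23 fits that left out 1 library. It was kept in 6 of 9 other alternatives, with values from -4.44 to -2.17. Among SPIA embryos that had no SoLo library, HDAC9 was not among the members called. In SoLo HDAC9 was highest in 112815_02 (17.4 CPM, beside 1242 CPM of cumulus markers) and had 6.79 CPM in 020816_08, where the markers summed to 13.0 CPM. In SPIA it was highest in 011516_03, where the markers summed to 30.1 CPM, and had 0 counts in 020816_08 and 0.667 CPM in 020816_10, where they summed to 1.45 and 4.24 CPM. Without the 3 embryos highest in cumulus markers the SPIA value was -3.93 (edgeR adjusted p = 0.0191). Without all 6 above the later stages it was -4.44 (edgeR adjusted p = 0.0310). Both fits kept 011516_03, and in the second only 020816_08 and 020816_10 stood beside it, so that value rests on 1 embryo. In SoLo this left 1 8-cell library, which cannot show the spread of its stage, so only the value, -3.34, is given.

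HDAC4, the class IIa member known for its control of bone and muscle growth in mice, had 32.1, 37.6, 51.0 and 51.7 CPM in the SoLo 8-cell libraries, and 5.72, 13.3 and 15.0 CPM in the morulas. The expanded blastocysts had 15.0, 21.3 and 35.3 CPM as lowest, median and highest. The morulas lay below every 8-cell embryo, and 1 blastocyst lay inside the 8-cell range. HDAC4 fell by 1.92 ± 0.46 in morulas (edgeR adjusted p = 0.00878), a call that held under each alternative tried in SoLo, with values from -2.17 to -1.60. In expanded blastocysts it fell by 0.97 ± 0.36 relative to 8-cell embryos (edgeR adjusted p = 0.0399). That call was kept in 2 of the 10 fits that left out 1 library, where the values ran from -1.16 to -0.88. It was kept in 4 of the 6 other alternatives, with values from -1.22 to -0.97.

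The SPIA libraries gave HDAC4 another course. Its lowest, median and highest levels were 0, 1.55 and 7.21 CPM at the 8-cell stage, 0, 2.06 and 25.5 CPM in morulas, and 0, 9.19 and 30.3 CPM in expanded blastocysts, with wide overlap. The log2 differences from the 8-cell stage were 1.19 ± 1.04 for morulas (edgeR adjusted p = 0.446) and 2.32 ± 1.05 for expanded blastocysts (edgeR adjusted p = 0.0781), and DESeq2 called the blastocyst difference (2.44, adjusted p = 0.0165). The sign was thus opposite to that in SoLo. Whether the kits differ by stage was tested over the embryos they share, in a fit that did not pair the libraries of an embryo. The edgeR p-value of the kit by stage interaction for HDAC4 was 0.0698, the lowest of the members, and 0.718 after adjustment. No member of 8 was called in that interaction, none had an unadjusted p under 0.05, and 0% of all genes were called, with 1051 genes at an unadjusted p under 0.05 and 3 called when the embryo was fitted as a replicate block.

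HDAC5, like HDAC4 a signal-responsive class IIa member, had 14.3, 16.9, 18.1 and 42.9 CPM in the SoLo 8-cell libraries and 16.0, 18.4 and 20.7 CPM in the morulas, and the blastocysts had 26.7, 35.5 and 38.7 CPM as lowest, median and highest. All blastocysts exceeded all morulas, with a difference of 0.88 ± 0.40 that did not pass (edgeR adjusted p = 0.283). In SPIA the lowest, median and highest levels were 0.182, 9.13 and 93.9 CPM at the 8-cell stage, 0, 2.50 and 30.4 CPM in morulas and 0, 8.30 and 15.0 CPM in expanded blastocysts. The stages overlapped widely for HDAC5 in SPIA, and the difference for morulas was -1.90 ± 0.94 (edgeR adjusted p = 0.150).

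Among class I members, HDAC2, a catalytic subunit of NuRD and SIN3, was measured well above the count limit in nearly every library. It had 276, 310, 359 and 437 CPM in the SoLo 8-cell libraries and 378, 467 and 504 CPM in the morulas, and the expanded blastocysts had 224, 279 and 365 CPM as lowest, median and highest. The morulas lay above all blastocysts and overlapped the 8-cell embryos. The difference between expanded blastocysts and morulas was -0.66 ± 0.20, with a p-value of 0.00413 that became 0.114 after edgeR's adjustment over all genes, and without morula 022916_01 it was -0.77 and called (edgeR adjusted p = 0.0344). In SPIA the lowest, median and highest levels were 0.638, 100.39 and 200.2 CPM at the 8-cell stage, 43.3, 85.0 and 362 CPM in morulas and 54.6, 81.6 and 147 CPM in expanded blastocysts. The groups overlapped and the same contrast gave -0.55 ± 0.40 (edgeR adjusted p = 0.382).

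HDAC1, the close paralog of HDAC2, had 19.0, 21.1, 37.9 and 58.1 CPM in the SoLo 8-cell libraries and 23.1, 25.9 and 42.9 CPM in the morulas, and 34.4, 40.5 and 49.8 CPM as lowest, median and highest in the expanded blastocysts. In SPIA the medians were 35.3 CPM in 8-cell embryos, 16.7 in morulas and 26.9 in expanded blastocysts, within ranges of 10.9 to 98.1, 3.70 to 52.9 and 3.39 to 52.3 CPM. All stages overlapped in both kits, and HDAC1 log2 differences lay between -0.72 and 0.45 in the 6 stage contrasts. The log2 ratio of HDAC1 to HDAC2 counts was -3.47 ± 0.84 in SoLo 8-cell embryos, -3.92 ± 0.32 in morulas and -2.75 ± 0.37 in expanded blastocysts (SD, n = 4, 3 and 6). In SPIA the same ratio was -0.98 ± 2.02, -2.55 ± 1.82 and -1.90 ± 1.21 at the 3 stages (SD, n = 9, 11 and 14). Without library 020816_09, whose ratio was 4.01, the SPIA 8-cell mean was -1.60 ± 0.82 (SD, n = 8). In both kits the mean ratio was lowest in morulas, but the SPIA ranges overlapped. The SoLo morula ratios (-4.17 to -3.55) lay inside the 8-cell range (-4.37 to -2.41) and below the expanded blastocysts (-3.22 to -2.31). The ratios, with 0.5 added to each count, were described without a test.

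HDAC3, the enzyme of the NCoR and SMRT complexes, had 1.99, 3.88, 17.1 and 19.1 CPM in the SoLo 8-cell libraries and 10.6, 12.01 and 21.0 CPM in the morulas, and 15.9, 23.1 and 29.7 CPM as lowest, median and highest in the expanded blastocysts. The stages overlapped, and the SoLo difference between expanded blastocysts and 8-cell embryos was 1.15 ± 0.57 (edgeR adjusted p = 0.123). In SPIA the lowest, median and highest levels were 0.549, 7.39 and 208 CPM at the 8-cell stage, 0.288, 5.64 and 20.9 CPM in morulas and 1.84, 8.87 and 23.7 CPM in expanded blastocysts. HDAC3 fell by 2.26 ± 0.82 in SPIA morulas relative to 8-cell embryos (edgeR adjusted p = 0.0441). That call came from 1 library: embryo 020816_09 had 2283 HDAC3 counts, and without it the difference was -0.37 (edgeR adjusted p = 0.792). The same library had 7 counts of HDAC2, or 0.638 CPM, against 43.7 to 200.2 CPM in the other 8-cell embryos.

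**Figure D3:**
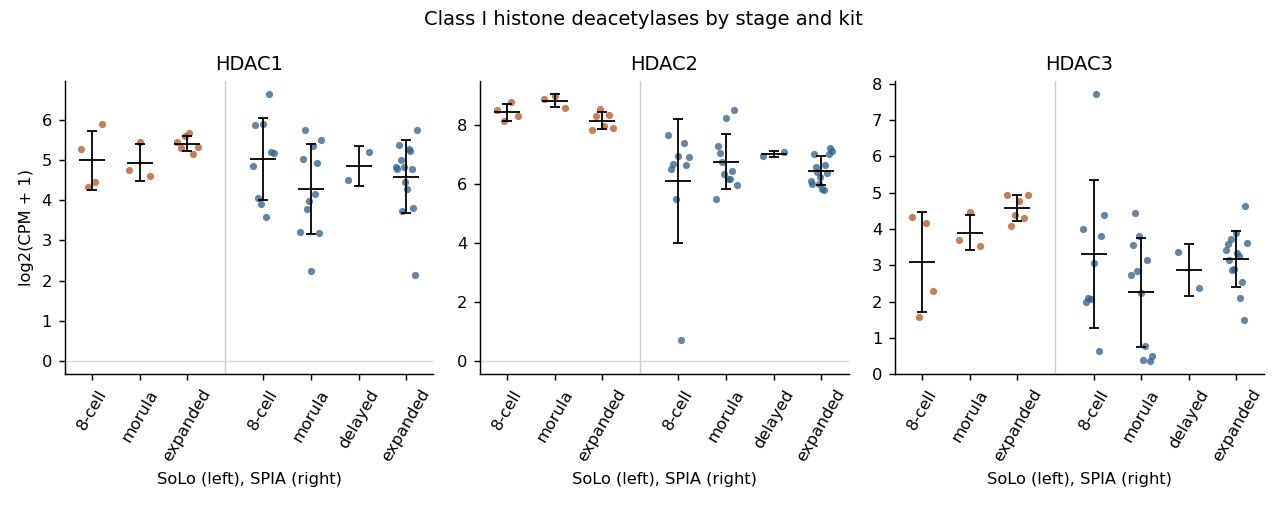
Levels of HDAC1, HDAC2 and HDAC3 as log2(CPM + 1), 1 point per library, with SoLo stages left and SPIA stages right of the grey line; black bars give the mean and SD. The SPIA 8-cell embryo 020816_09 is the highest HDAC3 point (208 CPM) and the lowest HDAC2 point (0.638 CPM).

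HDAC6, the tubulin deacetylase, had 1.13, 3.92, 5.21 and 20.1 CPM in the SoLo 8-cell libraries and 11.6, 18.2 and 31.7 CPM in the morulas, and 17.2, 26.2 and 36.2 CPM as lowest, median and highest in the expanded blastocysts. Of the 8-cell embryos only 020816_07 overlapped the later stages. HDAC6 rose by 1.81 ± 0.62 in expanded blastocysts relative to 8-cell embryos (edgeR adjusted p = 0.0298), and the call was kept in 5 of the 10 fits that left out 1 library, with values from 1.45 to 2.95, and in each of the 6 other alternatives, from 1.72 to 4.54. Embryo 020816_07 had the highest summed cumulus markers of the 8-cell embryos in both kits, and without it the difference was 2.95 (edgeR adjusted p = 0.00129). Whether cumulus RNA had a part in its HDAC6 level was not tested.

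In SPIA the lowest, median and highest HDAC6 levels were 0, 0.785 and 21.5 CPM at the 8-cell stage, 0.122, 3.97 and 49.7 CPM in morulas and 2.01, 11.8 and 27.4 CPM in expanded blastocysts. Of the 9 8-cell embryos, 8 had 4.14 CPM or less, and 011516_03 had 565 counts, the embryo that was also highest in HDAC9. The differences from the 8-cell stage were 1.88 ± 0.91 for morulas and 1.84 ± 0.88 for expanded blastocysts (edgeR adjusted p = 0.137 and 0.0956). Without 011516_03 both passed, at 3.37 for morulas (edgeR adjusted p = 0.0126) and 3.33 for expanded blastocysts (edgeR adjusted p = 0.00506).

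**Figure D4:**
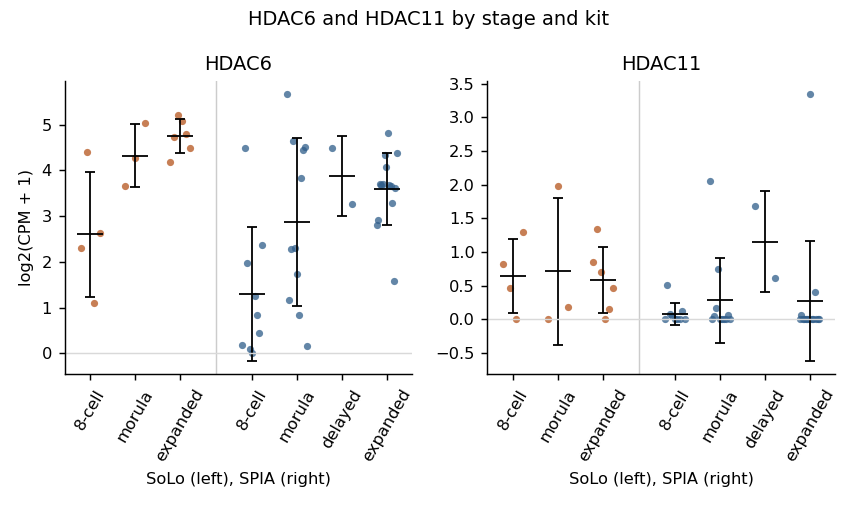
Levels of HDAC6 and HDAC11 as log2(CPM + 1), 1 point per library, with SoLo stages left and SPIA stages right of the grey line; black bars give the mean and SD. HDAC6 is low in 8-cell embryos except 1 library in each kit (20.1 and 21.5 CPM), and most HDAC11 points lie at or near 0.

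HDAC11 was at or below 3 counts in 6 of 13 SoLo libraries and in 30 of 36 SPIA libraries. Its highest counts were 20 in SoLo morula 021016_03 and 18 in SPIA morula 020816_02. It was not tested in SoLo, where it fell under the filter on low counts. In SPIA it was among the 9 members tested and was not called in any stage contrast. With so few counts, no fold change is given for it.

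Between morulas and expanded blastocysts no member was called in either kit by edgeR or DESeq2. In SoLo 1.14% of all genes were called, a count of 162 that was 1477 without morula 022916_01 and 5 without morula 021016_03. There, 3 of 8 members (HDAC2, HDAC4 and HDAC5) had an unadjusted p under 0.05, and the log2 differences ran from -1.42 to 0.95. In SPIA 14.7% of all genes were called, 1 of 9 members (HDAC9) had an unadjusted p under 0.05, and the differences ran from -2.63 to 1.13.

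The 2 delayed blastocysts, which the labels set apart from expanded ones, were compared in SPIA alone. HDAC7 had 6.20 and 13.5 CPM in delayed blastocysts, inside the range of 1.61 to 75.4 CPM in expanded ones, and HDAC2 had 122 and 133 CPM, inside 54.6 to 147 CPM. HDAC4 had 0.444 and 7.95 CPM in delayed blastocysts, against 0 to 30.3 CPM in expanded ones. No member of 9 was called by edgeR or DESeq2 and none had an unadjusted p under 0.05, with log2 differences between -1.41 and 0.50 for the members other than HDAC11. Of all genes 0% were called by edgeR, with 196 at an unadjusted p under 0.05, and DESeq2 called 21. With 2 libraries in 1 group, these intervals are wide: the standard error for HDAC7 was 1.51.

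The same 11 embryos measured in both kits gave 1 called member of 8, HDAC2, where 18.5% of all genes were called. Scaled over both kits together, HDAC2 averaged 283 ± 76.3 CPM in SoLo and 140 ± 38.3 CPM in SPIA (SD, n = 11 each), and was higher in SoLo in 11 of 11 embryos. The log2 difference was 1.00 ± 0.18 (edgeR adjusted p = 1.12e-04), and 1.03 with the embryo as a replicate block. HDAC1, its paralog, averaged 28.6 ± 9.85 CPM in SoLo and 38.8 ± 23.6 CPM in SPIA, was higher in SoLo in 4 of 11 embryos, and differed by -0.41 ± 0.32 (edgeR adjusted p = 0.429).

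For HDAC4 the gap between kits was widest in 8-cell embryos. It had 451 counts in SoLo and 0 in SPIA in embryo 020816_08, and 345 counts in SoLo and 2 in SPIA in 020816_06. At the blastocyst stage the kits were closer, here in CPM scaled over both kits together. HDAC4 had 11.1, 12.3, 16.2 and 27.4 CPM in SoLo and 8.52, 17.4, 18.3 and 45.5 CPM in SPIA for the same 4 embryos. All but the first were higher in SPIA. Over all 11 embryos the HDAC4 difference was 1.39 ± 0.68 (edgeR adjusted p = 0.166). HDAC6 in embryo 020816_07 had 212 counts in SoLo and 2 in SPIA. HDAC7 had at most 19 counts in SoLo and 5 in SPIA in the 4 shared 8-cell embryos, and at least 78 in SoLo and 10 in SPIA in the later ones. Its kit difference was 0.09 ± 0.63 (edgeR adjusted p = 0.946). HDAC9 was at 3 counts or fewer in 2 SoLo and 7 SPIA libraries of the 11 embryos.

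**Figure D5:**
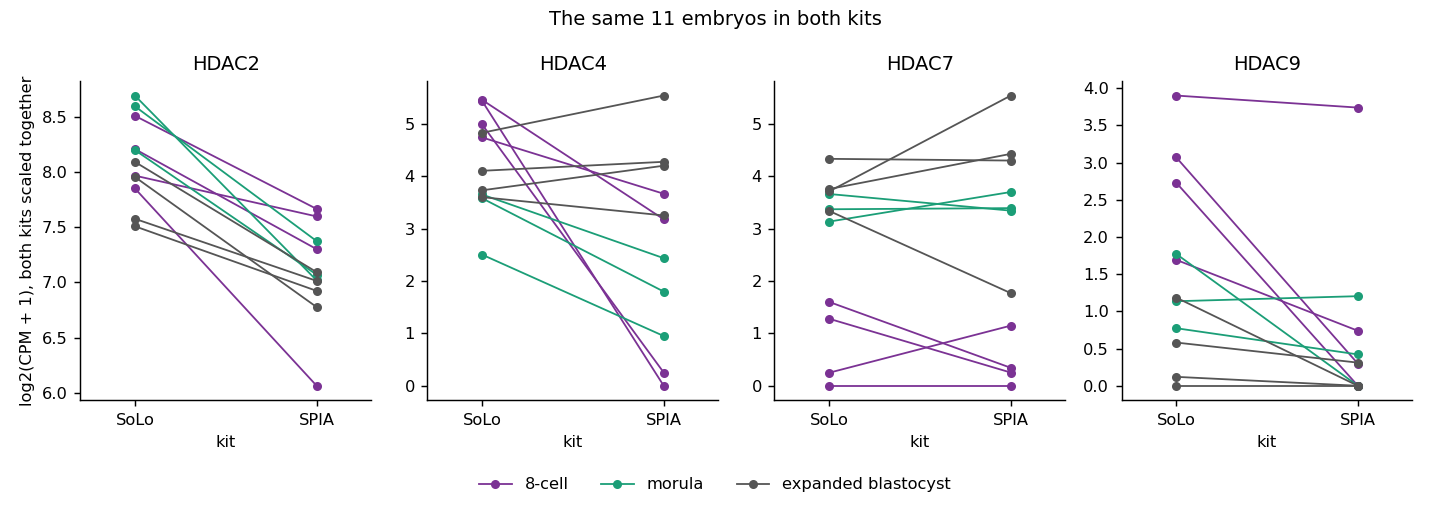
Levels of HDAC2, HDAC4, HDAC7 and HDAC9 in the 11 embryos measured with both kits, as log2(CPM + 1) scaled over both kits together; each line joins the SoLo (left) and SPIA (right) library of 1 embryo, coloured by stage. HDAC2 is lower in SPIA in 11 of 11 embryos, HDAC4 drops to 0 in SPIA in 8-cell embryo 020816_08, and HDAC7 separates the 8-cell embryos from the rest in both kits.

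The genes with the pattern most like a member's were taken by Pearson correlation of log2(CPM + 1) over the 36 SPIA libraries, among 10967 named genes. These libraries share stage, title code and depth, so the values are descriptions. For HDAC7 the nearest were C4H6orf132 (r = 0.76, rho = 0.72, and r = 0.92 over 13 SoLo libraries) and SASH1, a signalling scaffold protein (r = 0.75, rho = 0.72, and r = 0.84 in SoLo). C4H6orf132 averaged 6.06 CPM in 8-cell embryos, 145 in morulas and 143 in expanded blastocysts in SoLo. For HDAC9 the nearest were AMPD3, an AMP deaminase (r = 0.77, rho = 0.47, and r = 0.69 in SoLo), and TUBA4A, an alpha-tubulin (r = 0.75, rho = 0.48, and r = 0.72 in SoLo). In SPIA, r was above rho by more for the HDAC9 neighbours, and in SoLo by more for those of HDAC7, where rho was 0.54 and 0.49 for C4H6orf132 and SASH1 and 0.66 and 0.62 for AMPD3 and TUBA4A.

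The partners of the class I enzymes were followed in lists of complex subunits without the deacetylases themselves. Their counts for expanded blastocysts relative to 8-cell embryos stand against 38.4% of all genes called in SoLo and 36.6% in SPIA, where 3691 of 5708 calls were lower. In NuRD, the nucleosome remodelling and deacetylase complex, 3 of 13 genes rose and 5 fell in SoLo between expanded blastocysts and 8-cell embryos, and 0 rose and 7 fell in SPIA. The list's median log2 difference was -0.70 in SoLo and -0.91 in SPIA, against -0.05 and -0.43 over all genes. GATAD2A, which bridges the remodelling and deacetylase parts of NuRD, averaged 269 CPM in 8-cell embryos, 118 in morulas and 103 in expanded blastocysts in SoLo, and fell by 1.39 ± 0.16 (edgeR adjusted p = 6.12e-06). In SPIA GATAD2A fell by 1.90 ± 0.31 (edgeR adjusted p = 1.04e-05). Its paralog GATAD2B fell in both kits, with log2 differences of -1.06 ± 0.26 in SoLo and -1.96 ± 0.43 in SPIA (edgeR adjusted p = 0.00375 and 5.10e-04). So did the histone chaperone RBBP7, at -0.81 ± 0.26 and -2.74 ± 0.49 (edgeR adjusted p = 0.0227 and 3.66e-05).

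In the SIN3 complex, 0 of 13 tested genes rose and 3 fell in SoLo, and 0 rose and 4 fell in SPIA, a smaller share called than over all genes in both kits, with medians of -0.13 and -0.94. SIN3A, the scaffold that holds HDAC1 and HDAC2, fell in both kits relative to 8-cell embryos, with differences of -0.53 ± 0.17 in SoLo and -2.02 ± 0.34 in SPIA (edgeR adjusted p = 0.0231 and 1.73e-05). SAP130 also fell, at -0.97 ± 0.19 and -1.65 ± 0.30, as did SAP18, at -0.90 ± 0.20 and -0.77 ± 0.30 (edgeR adjusted p at most 0.0403). The CoREST complex, which pairs HDAC1 and HDAC2 with a histone demethylase, had 4 of 10 genes higher and 2 lower in SoLo, and 1 higher and 2 lower in SPIA, with medians of 0.66 and 0.46. PHF21A, which reads unmethylated histone H3, fell, at -1.01 ± 0.37 in SoLo and -2.39 ± 0.57 in SPIA, and so did ZMYM2, at -0.55 ± 0.20 and -0.81 ± 0.32, while GSE1 rose by 1.60 ± 0.59 and 1.55 ± 0.60 (edgeR adjusted p at most 0.0429).

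Of the MiDAC genes, which form a mitotic deacetylase complex with HDAC1 and HDAC2, 1 of 4 tested rose in SoLo and 1 fell in SPIA, and it was the same gene. MIDEAS, its scaffold, rose by 1.44 ± 0.39 in SoLo, with means of 22.8, 54.4 and 62.2 CPM from 8-cell to blastocyst, and fell by 1.53 ± 0.47 in SPIA, with means of 142, 50.9 and 49.2 CPM (edgeR adjusted p = 0.00764 and 0.00884). ZNF541, which in SPIA morulas fell by 4.08 ± 1.32 (edgeR adjusted p = 0.0250), was at -0.76 ± 1.13 in SPIA blastocysts (edgeR adjusted p = 0.634). In the NCoR and SMRT complexes of HDAC3, 2 of 6 genes rose in SoLo and 0 moved in SPIA, with medians of 1.05 and 0.15. TBL1XR1, an exchange factor of that complex, rose by 1.24 ± 0.20 in SoLo (edgeR adjusted p = 2.00e-04) and was at 1.00 ± 0.48 in SPIA (edgeR adjusted p = 0.0936). CORO2A, an actin-binding member of the complex, was at 1.72 ± 0.84 in SoLo and -1.03 ± 0.80 in SPIA, with neither called (edgeR adjusted p = 0.116 and 0.327).

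The partners of class IIa proteins were MEF2 factors, 14-3-3 proteins and the kinases that send class IIa proteins out of the nucleus. Of these, 5 of 21 rose and 2 fell in SoLo in expanded blastocysts relative to 8-cell embryos, and 3 of 20 rose and 2 fell in SPIA, with medians of -0.21 and -0.32. These shares, too, were below the 38.4% and 36.6% over all genes. The calcium/calmodulin kinase gene CAMK1 averaged 2.14, 7.90 and 30.8 CPM in SoLo 8-cell embryos, morulas and blastocysts, and rose by 3.84 ± 0.91 there and by 5.80 ± 1.34 in SPIA (edgeR adjusted p = 0.00347 and 7.96e-04). CAMK2D rose by 4.39 ± 0.96 and 4.21 ± 1.24 (edgeR adjusted p = 0.00265 and 0.00667). The protein kinase D gene PRKD2 went the other way and fell, at -1.78 ± 0.36 and -2.86 ± 0.76 (edgeR adjusted p = 0.00104 and 0.00312).

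Of 7 tested partners and substrates of HDAC6, 3 rose and 3 fell in SoLo expanded blastocysts relative to 8-cell embryos. In SPIA 2 rose and 3 fell, and the medians were 1.47 in SoLo and -0.02 in SPIA. Over all genes 38.4% were called in SoLo and 36.6% in SPIA. DYNC1H1, a subunit of the dynein motor that HDAC6 binds, rose by 3.04 ± 0.40 in SoLo and 3.17 ± 0.42 in SPIA (edgeR adjusted p = 4.96e-05 and 2.47e-07). The alpha-tubulin genes TUBA1A and TUBA4A fell, TUBA1A at -1.38 ± 0.17 and -1.95 ± 0.25 and TUBA4A at -2.99 ± 1.12 and -4.18 ± 1.13 (edgeR adjusted p at most 0.0445). Among 8 other deacetylases, HDAC10 and the sirtuins, 0 rose and 1 fell in each kit, a smaller share than over all genes. The gene that fell was the mitochondrial sirtuin SIRT4, at -1.78 ± 0.62 in SoLo and -2.82 ± 0.93 in SPIA (edgeR adjusted p = 0.0317 and 0.0149).

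The same lists were counted in the other stage contrasts, over the 13 NuRD, 13 SIN3, 10 CoREST, 4 MiDAC, 6 NCoR and SMRT and 7 HDAC6 genes tested in each kit and the 21 class IIa partners in SoLo and 20 in SPIA. For morula minus 8-cell, 16.7% of all genes were called in SoLo and 19.4% in SPIA, and for expanded blastocyst minus morula 1.14% and 14.7%. In SoLo morulas relative to 8-cell embryos, 1 NuRD gene rose and 2 fell, no SIN3 or MiDAC gene was called, 2 CoREST genes and 2 NCoR and SMRT genes rose, 4 class IIa partners rose and 1 fell, and 3 HDAC6 partners rose and 1 fell. In SPIA morulas, 2 NuRD, 2 SIN3, 3 MiDAC and 1 NCoR and SMRT gene fell, 1 CoREST gene rose and 1 fell, and 2 class IIa partners and 1 HDAC6 partner rose. In expanded blastocysts relative to morulas, 1 gene of these lists, from CoREST, was called in SoLo, where it rose. In SPIA, 3 NuRD genes, 1 SIN3 gene, 1 class IIa partner and 3 HDAC6 partners fell, and 1 CoREST and 1 MiDAC gene rose. None of the 8 other deacetylases was called in these contrasts in either kit.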

How the data were processed

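RNA-seq of single rhesus embryos was analysed from whole-number read counts per gene, as deposited by the authors without normalisation. HISAT2 and DESeq2 are named, with no version, in the submitters' processing notes. For the counter, strand, annotation and genome build the entry is: not given in the sources used here. Paralogs and overlapping genes may therefore share counts. Of 52 columns, 49 were matched to samples, 2 of them by group alone; 3 columns matched no sample and were not used, and 3 samples were not analysed here. Tests were run with edgeR 4.0.16 under R 4.3.3 (TMM, filterByExpr, robust quasi-likelihood fit, Benjamini-Hochberg adjustment over all genes tested), with 1 fit per kit over its stages and 1 fit with kit and stage over the 11 embryos in both kits. Those embryos are paired by their titles, and same-embryo libraries deviated together from their stage means (median r = 0.23, above 0.1 in 10 of 11). Alternatives used DESeq2 1.42.0, limma 3.58.1 voom with title code as random block, other filters and libraries left out. Scripts were tested on simulated data. The members, lists and naming rules were chosen with earlier results of these data known: every member was named, and from each list at most 3 genes called the same way in both kits, or at most 2 called in either. No group held libraries that agreed within sampling noise (lowest chi-square per degree of freedom 15.6 over 207 pairs). Whether reads carried molecular identifiers was not examined, and limits from counts cover counting error only. Figures used matplotlib 3.10.9.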

Additional observations from a re-analysis of the deposited data

Results flagged for a closer look

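HDAC2 in the SPIA 8-cell embryo 020816_09 was at 0.638 CPM, far from the other 8 libraries of its group, which lay between 43.7 and 200.2 CPM. On the log2(CPM + 1) scale its distance to the next value was 0.687 of the group's whole range, above Dixon's 95% critical value for 9 samples. It was the single value set apart among 24 groups of members' levels, and chance sets apart about 1 group in 20. The cause was not tested.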

How the results depend on the processing

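Of 199 recomputed counts of called members, 172 stayed within 1.5 times the reported count and 27 did not. For morula minus 8-cell in SPIA, 2 members were called, against 1 under the stricter filter, in a fit of the compared groups alone, with voom and title code as random block, among SPIA embryos without a SoLo library and without 8-cell 020816_09 and the shallow library together and without the 6 8-cell embryos above the later stages in cumulus markers (added after seeing the data), and 0 within title code 020816; leaving out 1 library gave 1 to 3. For expanded blastocyst minus 8-cell in SPIA, the 2 calls became 5 with DESeq2, 1 with the stricter filter and 1 among embryos without a SoLo library. For expanded blastocyst minus morula, the 0 calls became 1 with voom in SPIA and 0 to 1 on leaving out 1 SoLo library. In SoLo, the 2 calls for morula minus 8-cell became 1 with the compared groups alone, and the 4 for expanded blastocyst minus 8-cell became 2 without the 3 embryos with cumulus markers, an alternative chosen after seeing the data, and 2 to 4 on leaving out 1 library. No value with a turned sign was called. In SPIA, these were HDAC2 (-0.23, libraries under 12 M counts) and HDAC5 (0.12, within code 020816) and HDAC3 (0.80, without those 6) for morula minus 8-cell, HDAC6 (0.078 with DESeq2, 0.081 with its size factors, 1.15 with voom, 0.046 without SoLo embryos, -0.18 to 0.44 on leaving out 1 library) and HDAC7 (0.56, voom) for expanded blastocyst minus morula, and HDAC2 (0.47, voom) and HDAC3 (0.34 with voom, 0.17 without 020816_09 and the shallow library, 1.35 without those 6, -1.89 to 0.19 on leaving out 1) for expanded blastocyst minus 8-cell. In SoLo, for morula minus 8-cell, these were HDAC1 (0.54), HDAC3 (-0.24) and HDAC5 (0.37) without the cumulus embryos, with HDAC1 from -0.45 to 0.24 and HDAC5 from -0.48 to 0.16 on leaving out 1 library. In the same-embryo comparison the replicate block left 1 member called and the interaction 0, and changed no other call. Voom moved the median of all genes for expanded blastocyst minus 8-cell in SPIA to 0.51, against -0.43 with edgeR. All-gene calls ranged, over the alternatives, from 4 to 4634 (3024 reported) for morula minus 8-cell, 678 to 3792 (2283) for expanded blastocyst minus morula and 2868 to 7483 (5708) for expanded blastocyst minus 8-cell in SPIA, and in SoLo from 1266 to 4006 (2371), 5 to 1477 (162) and 4199 to 6578 (5457). The causes were not tested. Voom's estimated correlation within title codes was -0.03. Members at a few counts, HDAC11 above all, are limited by depth.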
